A study of Mus musculus with 8 samples.

Results

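Epithelial and mesenchymal adhesion was described here through 10 genes, the epithelial genes Cdh1 and Epcam, the mesenchymal genes Cdh2 and Vim, and the transcription factor genes Snai1, Snai2, Twist1, Twist2, Zeb1 and Zeb2. They were chosen by symbol and not by their measured values, and all 10 were found among the 20278 genes listed in at least 1 library. RNA was measured by sequencing in N33, a mouse embryonic stem cell (ESC) line derived from C57BL/6J mice (strain C57BL/6 in the labels), under 4 culture conditions with 2 replicates each. In the −F group the cells grew in medium with 20% fetal bovine serum on gelatin-coated plates without feeders. In the F group they grew in the serum medium on feeders, which are mouse embryonic fibroblasts (MEFs) stopped from dividing by mitomycin C. The F2i group had serum, feeders and 2i, a pair of inhibitors of the kinases Gsk3β and Mek. In the NB2i group the cells grew without serum or feeders in N2B27, a chemically defined medium, on plates coated with poly-L-ornithine and laminin, with 3 µM CHIR99021 and 1 µM PD0325901 as 2i. All groups received leukemia inhibitory factor (LIF) at 1000 U/ml. The inhibitor doses are stated for N2B27 only. Cells grown on feeders were separated from them by adherence before RNA extraction, and the labels do not give how many feeders remained. All libraries came from a single line, and NB2i differed from F2i in medium, serum, feeders and plate coating together, and from −F in medium, serum, coating and 2i, whose parts cannot be told apart.

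E-cadherin, the product of Cdh1, joins neighbouring epithelial cells at adherens junctions and also holds the compact colonies of mouse ESCs together. In an epithelial-mesenchymal transition (EMT), cells lose E-cadherin and EpCAM, gain N-cadherin (Cdh2) and the intermediate filament vimentin (Vim), and loosen from their neighbours. The Snail (Snai1, Snai2), Twist (Twist1, Twist2) and Zeb (Zeb1, Zeb2) factors drive this change, and Snail and Zeb factors repress Cdh1 by binding short DNA motifs called E-boxes. Fibroblasts such as feeders are mesenchymal cells and express most of the mesenchymal genes of this set.

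The libraries held 20129641 to 20664488 expected counts each and listed 17114 to 18111 genes. Levels are given as FPKM, which is per transcript length and library size and so allows comparison between genes, and differences as log2 fold changes of counts with their standard error (SE). Differences were tested with edgeR and adjusted by Benjamini-Hochberg over 15287 genes. A gene was called at an adjusted p under 0.05 and a change of at least 2-fold, and "rose" or "fell" is used for an adjusted p under 0.05 of any size. The labels do not say that replicates came from separate cultures, and the p-values measure the spread between these libraries, which may be technical. ESC markers were high in every library, where Pou5f1 reached 569 to 765 FPKM and Nanog 199 to 482 FPKM, and the 8 ESC markers together 2146 to 2568 FPKM. Markers of other lineages summed to less than the ESC markers in every library, and their sums differed between conditions. Primitive endoderm markers summed over 6 genes to 5.35 and 4.34 FPKM in −F, 11.6 and 12.2 FPKM in F, 4.74 and 4.61 FPKM in F2i, and 2.76 and 2.97 FPKM in NB2i. Mesoderm markers summed to 3.52 to 7.11 FPKM over 6 genes. Neural markers summed over 5 genes to 57.5 and 55.6 FPKM in −F and 48.8 and 46.9 FPKM in F. In F2i they reached 37.3 and 40.2 FPKM and in NB2i 27.2 and 26.0 FPKM. Trophoblast markers summed over 6 genes to 27.6 and 28.7 FPKM in −F and 22.2 and 23.8 FPKM in F. In F2i they reached 21.0 and 22.1 FPKM and in NB2i 45.6 and 42.5 FPKM. The NB2i sum lay mostly in Tead4 and Krt7, with means of 24.5 and 19.2 FPKM. Of 5 trophoblast markers tested, 1 was called higher and 3 lower in NB2i against F2i (median log2 fold change −1.66). In NB2i against −F, 1 was called higher and 2 lower (−0.70). Of all genes tested, 6.01% were called higher and 13.3% lower in the first comparison, and 11.1% and 16.1% in the second.

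Fibroblast markers differed strongly between groups, and their values are given beside the mesenchymal genes below. The 13 fibroblast markers together reached 14.4 and 14.1 FPKM in −F, 241 and 252 FPKM in F, 630 and 620 FPKM in F2i, and 6.28 and 5.96 FPKM in NB2i. The groups did not overlap, and F2i held the most. Col1a1, a chain of the main fibrillar collagen, was at 2.59 and 2.47 FPKM in −F, 66.0 and 69.6 FPKM in F, 248 and 239 FPKM in F2i, and 0.55 and 0.51 FPKM in NB2i. Col3a1, another fibrillar collagen, was at 0.10 and 0.05 FPKM in −F, 13.2 and 14.1 FPKM in F, 37.6 and 36.9 FPKM in F2i, and 0.03 and 0 FPKM in NB2i. The counts of markers listed at 0 were 2 in each −F library, 0 in each F and F2i library, and 4 and 5 in the NB2i libraries. All 13 were called higher in F than in −F, 5 were called higher in F2i than in F, and all 13 were called lower in NB2i than in F2i. Between the feeder-free groups, 1 was called higher and 8 lower in NB2i than in −F. In these bulk samples, fewer cells of a type and less RNA per cell cannot be told apart.

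Vim and all EMT factors of the set but Twist1 rose on feeders, as did Cdh2 by less than 2-fold. The rises of Cdh2 and Twist2 did not pass with DESeq2. In F against −F, 6 of the 10 genes were called higher (Vim, Snai1, Snai2, Twist2, Zeb1 and Zeb2) and 0 lower, where 5.59% of all genes tested were called higher and 1.65% lower. Adding 2i to feeders and serum (F2i against F) gave 2 called higher (Snai2 and Zeb1) and 1 lower (Epcam), with 6.44% of all genes called higher and 7.00% lower. In NB2i against F2i, 0 were called higher and 5 lower (Vim, Snai2, Twist1, Twist2 and Zeb2), with 6.01% of all genes higher and 13.3% lower. Between the feeder-free groups, NB2i against −F, 3 were called higher (Vim, Snai1 and Zeb1) and 4 lower (Epcam, Twist1, Twist2 and Zeb2), with 11.1% of all genes higher and 16.1% lower. Twist2 passed the filter on counts there only through the F and F2i libraries. The median log2 fold changes of the 10 genes were 1.38, 0.24, −1.29 and −0.27 in these comparisons in order, beside 0.00, 0.00, 0.02 and 0.01 for all genes tested. Comparisons that share a group are not independent of each other. The summed fibroblast markers were higher, higher, lower and lower in the same order, and their part in the counts was not tested. Of the 6 primitive endoderm markers, 5 were called higher and 0 lower in F against −F (median 1.51), and 0 higher and 4 lower in F2i against F (−1.19), and their part was not tested either.

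**Figure D1:**
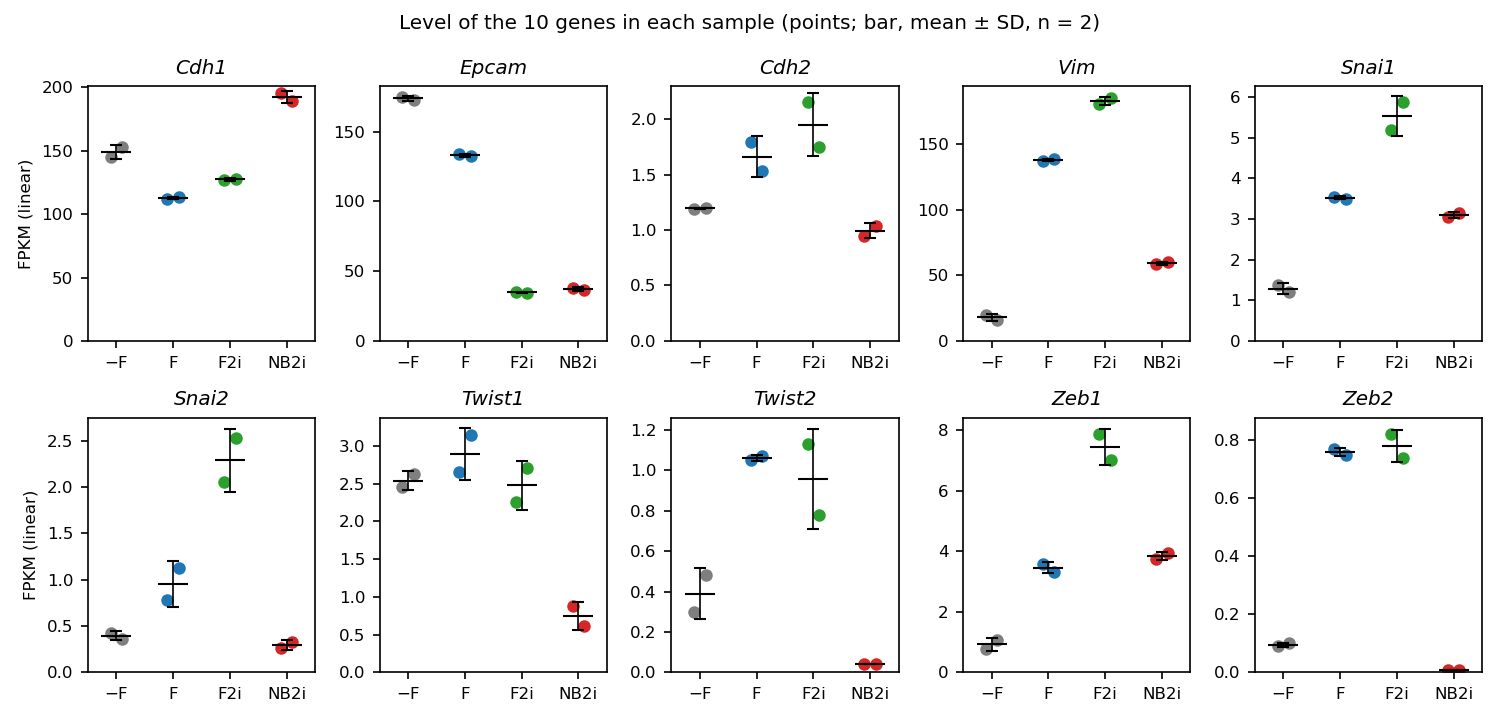
The FPKM of the 10 genes in each of the 8 libraries (linear axes from 0), by culture condition, with a point for each library and bars for the mean and SD (n = 2). Cdh1 stays between 112 and 196 FPKM, Epcam drops from 132 FPKM or more in −F and F to 38.0 FPKM or less with 2i, and Zeb2 is at 0.01 FPKM in both NB2i libraries.

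Cdh1 was among the highly expressed genes in every condition. E-cadherin RNA (gene ID 12550; mm10, chromosome 8, 106603351 to 106670246, plus strand) was at 145 and 153 FPKM in −F, 112 and 114 FPKM in F, 127 and 128 FPKM in F2i, and 196 and 189 FPKM in NB2i. The groups did not overlap, with NB2i highest and F lowest, and from 95.8% to 97.7% of genes tested lay below Cdh1. The changes were small but larger than the spread between replicates. Cdh1 fell in F against −F (log2 fold change −0.38, SE 0.04, adjusted p = 2.82e-07) and rose in F2i against F (0.21, SE 0.04, adjusted p = 2.07e-04). It rose again in NB2i against F2i (0.60, adjusted p = 4.88e-11) and was 1.35-fold higher in NB2i than in −F (adjusted p = 5.13e-09). None of these changes reached 2-fold.

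Epcam was lower in both groups with 2i. EpCAM is a homophilic adhesion molecule of epithelia (gene ID 17075; mm10, chromosome 17, 87635979 to 87651129, plus strand). Its RNA was at 175 and 173 FPKM in −F and 134 and 132 FPKM in F, against 35.0 and 34.5 FPKM in F2i and 38.0 and 36.3 FPKM in NB2i. Every library without 2i was above every library with 2i. Epcam fell in F2i against F (log2 fold change −1.90, SE 0.04, adjusted p = 6.73e-19) and was 4.47-fold lower in NB2i than in −F (adjusted p = 1.36e-20). Between F and −F it fell by 0.36 on the log2 scale (adjusted p = 2.19e-07). The neighbours F2i and NB2i did not differ after adjustment (0.10, 95% confidence interval 0.00 to 0.20, adjusted p = 0.0675), while limma on log2(FPKM + 1) put NB2i above F2i (0.09, adjusted p = 0.0428). Cdh1 and Epcam, both epithelial, moved differently with 2i. Cdh1 rose slightly in F2i against F while Epcam fell 3.73-fold.

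The 250 bases before the start of Epcam and of Snai1 are shown because they hold the E-box that Snail and Zeb factors bind. CAGGTG and its complement CACCTG, a form of the general E-box CANNTG, were searched on both strands, and 6 of the 10 genes had a promoter in the RefSeq table (GRCm38.p6): Epcam, Vim, Snai1, Twist1, Twist2 and Zeb2. Capitals mark each CANNTG match. The Epcam window (chr17:87635729-87635978, plus strand) holds 2 matches, CACCTG with its first base at −187 and CAGGTG at −19 from the start. The Snai1 window (chr2:167537945-167538194, plus strand) holds 1, CACCTG at −126.
Epcam: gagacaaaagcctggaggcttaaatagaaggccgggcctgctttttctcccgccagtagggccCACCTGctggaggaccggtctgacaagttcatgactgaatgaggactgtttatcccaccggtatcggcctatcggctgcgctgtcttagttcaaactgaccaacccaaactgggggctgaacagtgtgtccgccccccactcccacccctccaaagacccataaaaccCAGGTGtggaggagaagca
Snai1: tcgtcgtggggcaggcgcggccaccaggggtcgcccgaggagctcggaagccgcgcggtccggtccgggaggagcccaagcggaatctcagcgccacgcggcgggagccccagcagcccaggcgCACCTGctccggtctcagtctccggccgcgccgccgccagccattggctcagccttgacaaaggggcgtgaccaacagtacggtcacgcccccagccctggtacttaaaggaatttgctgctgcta
No CANNTG was found in the same window of Vim, Twist1, Twist2 or any of the 4 starts of Zeb2. Of 32851 promoter windows of this length, 17.2% held CAGGTG on either strand and 66.2% held CANNTG. A match describes the letters only, and binding was not measured.

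Cdh2 was low everywhere. N-cadherin (gene ID 12558; mm10, chromosome 18, 16588877 to 16809246, minus strand), the cadherin of neural and mesenchymal cells, was at 1.19 and 1.20 FPKM in −F, 1.79 and 1.53 FPKM in F, 2.15 and 1.75 FPKM in F2i, and 0.95 and 1.04 FPKM in NB2i. F and F2i overlapped, and both lay above −F and NB2i. Cdh2 rose in F against −F (log2 fold change 0.50, SE 0.13, adjusted p = 0.00476), which did not pass with DESeq2 (0.49, adjusted p = 0.0626) or without F replicate 1 (0.38, adjusted p = 0.0784). It fell in NB2i against F2i (−0.96, SE 0.13, adjusted p = 2.17e-06). F2i against F (0.27, 95% confidence interval 0.02 to 0.52, adjusted p = 0.0669) and NB2i against −F (−0.19, adjusted p = 0.24) did not pass the test. F2i against F passed without F replicate 1 (0.39, adjusted p = 0.0418) and without F2i replicate 2 (0.41, adjusted p = 0.022). Without F2i replicate 2 the fall in NB2i against F2i was −1.10, and without NB2i replicate 2 it was −1.03, both past 2-fold. The order of the groups followed the fibroblast markers, whose part was not tested.

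Vim changed most in absolute level. Vimentin RNA (gene ID 22352; mm10, chromosome 2, 13573927 to 13582826, plus strand) was at 19.8 and 16.0 FPKM in −F, 137 and 139 FPKM in F, 181 and 185 FPKM in F2i, and 58.4 and 60.2 FPKM in NB2i. No groups overlapped, and −F was lowest. Vim rose in F against −F (log2 fold change 2.97, SE 0.06, adjusted p = 7.7e-20), or 7.83-fold, and in F2i against F (0.45, SE 0.05, adjusted p = 1.19e-07). It fell in NB2i against F2i (−1.62, SE 0.05, adjusted p = 1.06e-16). Vim was 3.47-fold higher in NB2i than in −F (1.79, adjusted p = 2.09e-16). The fibroblast markers summed to less in NB2i than in −F. Neither group had feeders, and the part of these markers' source in the level of Vim was not tested. Of the 13 fibroblast markers, 8 were called lower in NB2i than in −F, among them Col1a1, Col3a1 and the surface glycoprotein gene Thy1 (4.45 and 4.51 FPKM in −F, 1.05 and 0.67 FPKM in NB2i). Pdgfrb, a growth factor receptor gene, was called higher (0.17 and 0.18 FPKM in −F, 0.35 and 0.45 FPKM in NB2i), and 4 were not called, of which Fbln2, a matrix protein gene, rose by less than 2-fold (1.69 and 1.84 FPKM in −F, 3.13 and 3.30 FPKM in NB2i).

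Snai1 was lowest in −F and highest in F2i. Snail (gene ID 20613; mm10, chromosome 2, 167538195 to 167542814, plus strand), a zinc finger repressor of Cdh1, was at 1.38 and 1.20 FPKM in −F, 3.55 and 3.50 FPKM in F, 5.20 and 5.89 FPKM in F2i, and 3.04 and 3.15 FPKM in NB2i. All libraries of −F were below all others, and F2i was highest. Snai1 rose in F against −F (log2 fold change 1.47, SE 0.16, adjusted p = 3.1e-07), in F2i against F (0.69, SE 0.12, adjusted p = 6.79e-05) and in NB2i against −F (1.32, adjusted p = 3.85e-07). It fell in NB2i against F2i (−0.84, adjusted p = 6.66e-06). The neighbours NB2i and F did not differ beyond their spread (−0.15, 95% confidence interval −0.43 to 0.14, adjusted p = 0.344).

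Snai2 was highest in F2i and low without feeders. Slug (gene ID 20583; mm10, chromosome 16, 14705852 to 14709385, plus strand), the related repressor that is prominent in fibroblasts and neural crest, was at 0.43 and 0.36 FPKM in −F, 0.78 and 1.13 FPKM in F, 2.05 and 2.53 FPKM in F2i, and 0.26 and 0.33 FPKM in NB2i. The groups did not overlap. Snai2 rose in F against −F (log2 fold change 1.31, SE 0.30, adjusted p = 0.00119) and in F2i against F (1.30, SE 0.21, adjusted p = 1.87e-05), and fell in NB2i against F2i (−2.95, adjusted p = 3.33e-09). The feeder-free groups did not differ beyond their spread (−0.34, adjusted p = 0.428). Snai1 passed the test in NB2i against −F and Snai2 did not, and the difference between both genes was not tested. The expected counts of Snai2 were not whole in any library, which RSEM gives where a read can be placed in more than 1 gene, and its level is less certain for that.

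Twist1 was lower in NB2i than in the 3 serum conditions. Twist1 (gene ID 22160; mm10, chromosome 12, 33957671 to 33959829, plus strand), a basic helix-loop-helix factor of mesoderm and cranial mesenchyme, was at 2.45 and 2.63 FPKM in −F, 2.65 and 3.14 FPKM in F, 2.25 and 2.70 FPKM in F2i, and 0.88 and 0.62 FPKM in NB2i. F2i overlapped both −F and F, the F libraries lay just above the −F libraries, and NB2i was below all of them. Twist1 fell in NB2i against F2i (log2 fold change −1.72, adjusted p = 7.22e-07) and in NB2i against −F (−1.69, adjusted p = 5.2e-07). F against −F (0.21, 95% confidence interval −0.14 to 0.56, adjusted p = 0.333) and F2i against F (−0.19, 95% confidence interval −0.54 to 0.16, adjusted p = 0.36) did not pass the test. In −F, where fibroblast markers summed to 14.1 to 14.4 FPKM, the Twist1 levels fell within the range of F2i (F2i against −F 0.02, 95% confidence interval −0.34 to 0.38, adjusted p = 0.914). The part of feeder RNA in the level of Twist1 was not tested.

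Twist2 was near the limit of detection in NB2i. Its product (gene ID 13345; mm10, chromosome 1, 91801461 to 91848028, plus strand), a close relative of Twist1 known from dermal fibroblasts, was at 0.30 and 0.48 FPKM in −F, 1.05 and 1.07 FPKM in F, 1.13 and 0.78 FPKM in F2i, and 0.04 and 0.04 FPKM in NB2i. F and F2i overlapped, −F was below them and NB2i lowest. It was called higher in F than in −F (log2 fold change 1.45, SE 0.36, adjusted p = 0.00288), a call that DESeq2 did not make (1.45, adjusted p = 0.0548). F2i against F did not pass (−0.11, SE 0.30, adjusted p = 0.783) and its sign turned without F2i replicate 2 (0.13). Each NB2i library held 1 count. Scaled to the total counts of each group, the 51 counts of F2i were 25.9 times those of NB2i (exact 95% counting interval 6.82 to 220). For −F, with 21 counts, the ratio to NB2i, scaled likewise, was 10.6 (2.59 to 93.1). The edgeR test called Twist2 lower in NB2i than in F2i (adjusted p = 1.44e-06) and than in −F (adjusted p = 7.44e-04). For the comparison with −F, Twist2 passed the filter on counts only through the F and F2i libraries, since −F held 8 and 13 counts. In a fit of only −F and NB2i it was not tested, and 6 of the 9 members tested were called. Counting intervals cover counting error only.

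Zeb1 and Zeb2 followed different patterns. Zeb1 (gene ID 21417; mm10, chromosome 18, 5591860 to 5775467, plus strand), a zinc finger and homeodomain repressor of Cdh1, was at 0.78 and 1.08 FPKM in −F, 3.58 and 3.32 FPKM in F, 7.87 and 7.01 FPKM in F2i, and 3.75 and 3.93 FPKM in NB2i. The groups did not overlap, with F2i highest and −F lowest. Zeb1 rose in F against −F (log2 fold change 1.91, SE 0.12, adjusted p = 1.99e-11), in F2i against F (1.15, SE 0.08, adjusted p = 1.18e-10) and in NB2i against −F (2.12, adjusted p = 3.06e-13), or 4.33-fold. It fell in NB2i against F2i (−0.95, adjusted p = 1.54e-09), and without F2i replicate 2 this was −1.03. NB2i and F, neighbours in the order, were apart by 0.20 (95% confidence interval 0.01 to 0.39, adjusted p = 0.0496). Its expected counts were fractional in every library, as for Snai2.

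Zeb2, the paralog of Zeb1 (gene ID 24136; mm10, chromosome 2, 44983632 to 45117395, minus strand), was at 0.09 and 0.10 FPKM in −F, 0.77 and 0.75 FPKM in F, 0.82 and 0.74 FPKM in F2i, and 0.01 and 0.01 FPKM in NB2i. F and F2i overlapped and held most of its reads. Zeb2 rose in F against −F (log2 fold change 3.00, SE 0.20, adjusted p = 6.63e-11). F and F2i did not differ beyond their spread (0.07, 95% confidence interval −0.20 to 0.35, adjusted p = 0.662). The fibroblast markers summed to more in F2i than in F, and their part in the level of Zeb2 was not tested. NB2i held 1.00 and 1.99 expected counts, and its 3 rounded counts stood against 289 in F2i and 36 in −F. Scaled to total counts, the ratio was 98.0 for F2i (exact 95% counting interval 33.2 to 478) and 12.1 for −F (3.82 to 61.4). Zeb2 was called lower in NB2i than in F2i (adjusted p = 1.29e-13) and than in −F (adjusted p = 6.86e-06). In NB2i against −F, Zeb1 was called higher and Zeb2 lower. The call of Zeb2 in that comparison was lost with limma on log2(FPKM + 0.1), where it was under 2-fold (−0.83, adjusted p = 0.0138), and on log2(FPKM + 1), where it did not pass the test (−0.12, adjusted p = 0.176). The fibroblast markers were lower in NB2i, and their part in the fall of Zeb2 was not tested.

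**Figure D2:**
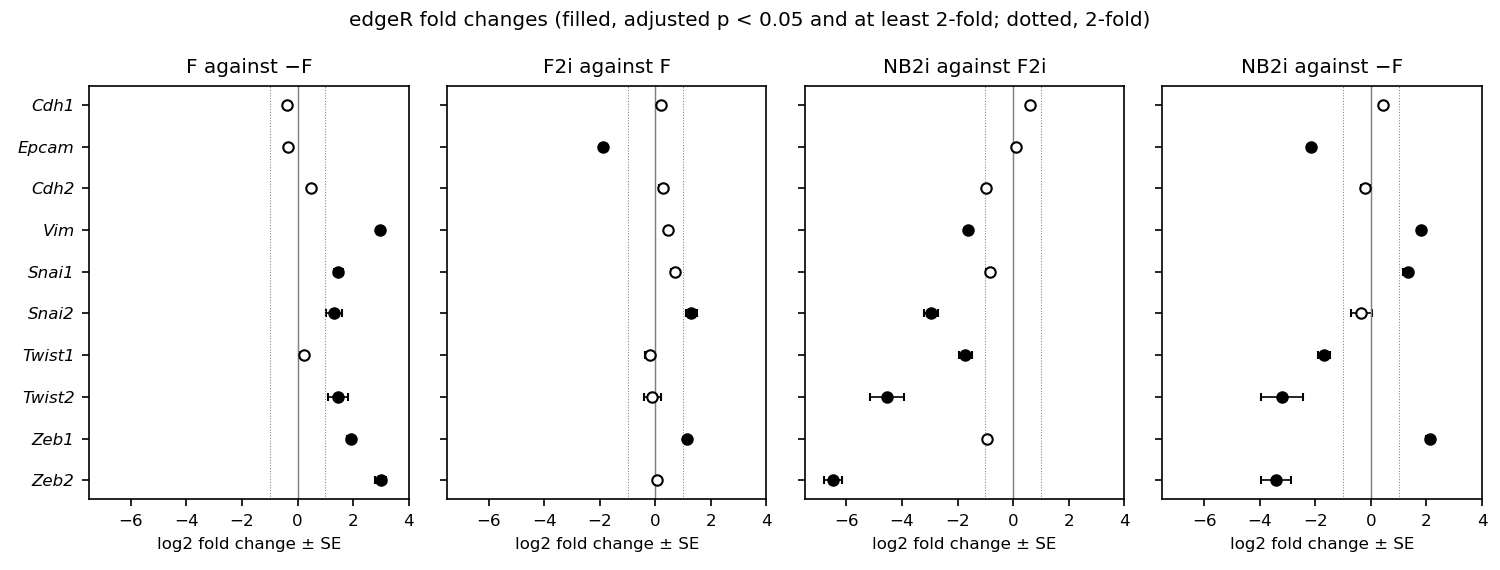
Log2 fold changes of the 10 genes in the 4 comparisons, with bars for the SE, filled points for called genes and dotted lines at 2-fold. Vim and Zeb2 lie near 3 in F against −F, Epcam is the one gene called lower in F2i against F (−1.90), and in NB2i against −F Zeb1 (2.12) and Zeb2 (−3.43) lie on opposite sides of 0.

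Ratios within a library compare the genes without the fit across libraries, and are given with no test. The log2 ratio of Cdh1 to Cdh2 FPKM was 6.93 and 7.00 in −F, 5.97 and 6.21 in F, 5.88 and 6.19 in F2i, and 7.69 and 7.51 in NB2i, so that E-cadherin RNA was in large excess in all libraries. The ratio of Cdh1 to Vim was 2.88 and 3.25 in −F, −0.29 and −0.29 in F, −0.51 and −0.53 in F2i, and 1.74 and 1.65 in NB2i. Vim thus exceeded Cdh1 in all 4 libraries from feeder cultures and in 0 of the 4 others. For Zeb1 to Zeb2 the log2 ratio was 3.12 and 3.43 in −F, 2.22 and 2.15 in F, 3.26 and 3.24 in F2i, and 8.55 and 8.62 in NB2i, where it rests on 3 counts of Zeb2. The Zeb2 FPKM is rounded to 0.01 in both NB2i libraries, and on expected counts their log2 ratios were 8.83 and 7.90. For Snai1 to Snai2 it was 1.68 and 1.74 in −F, 2.19 and 1.63 in F, 1.34 and 1.22 in F2i, and 3.55 and 3.25 in NB2i. NB2i had the highest ratio in both factor pairs.

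**Figure D3:**
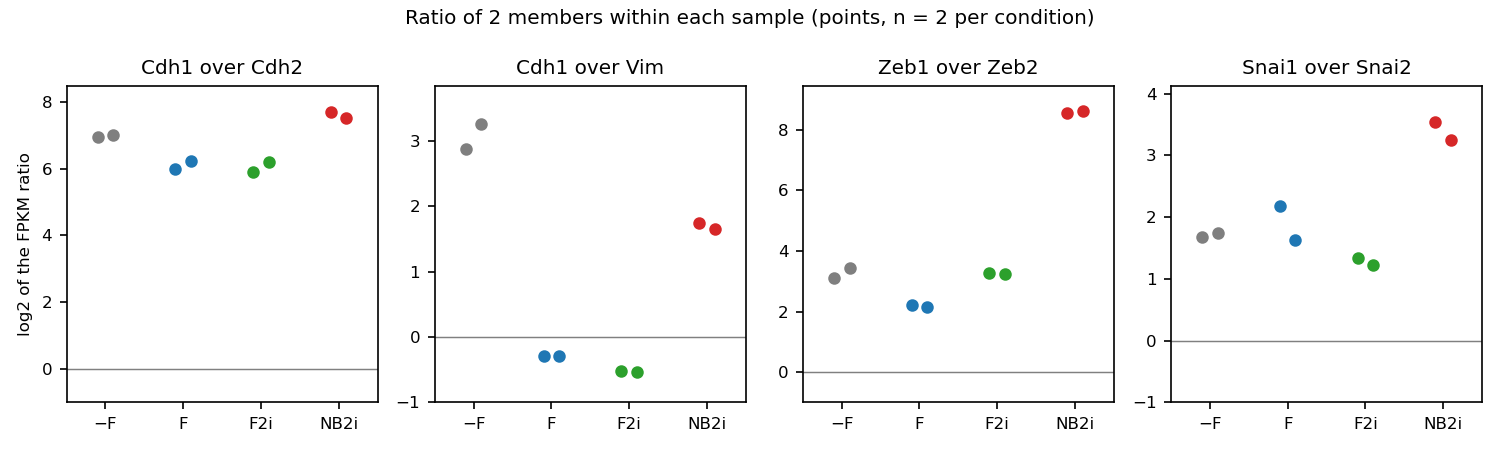
Log2 ratios of FPKM within each of the 8 libraries for Cdh1 over Cdh2, Cdh1 over Vim, Zeb1 over Zeb2 and Snai1 over Snai2. The ratio of Cdh1 to Vim is below 0 in the F and F2i libraries (−0.29 to −0.53) and above it in −F and NB2i (1.65 to 3.25).

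Set against the summed FPKM of the fibroblast markers, Cdh2, Vim and all EMT factors of the set but Snai2 were lower in F2i than in F. Per 100 FPKM of summed fibroblast markers, Snai2 was at 0.324 and 0.448 FPKM in F and 0.325 and 0.408 FPKM in F2i, and Zeb1 at 1.49 and 1.32 FPKM in F and 1.25 and 1.13 FPKM in F2i. Snai2 overlapped between both groups and Zeb1 was slightly lower in F2i. Vim per 100 FPKM of markers was at 57.0 and 54.9 FPKM in F and 28.7 and 29.9 FPKM in F2i, Zeb2 at 0.319 and 0.297 FPKM against 0.130 and 0.119 FPKM, and Snai1 at 1.47 and 1.39 FPKM against 0.825 and 0.950 FPKM. These were lower in both F2i libraries than in both F libraries. So were Cdh2 (0.743 and 0.606 against 0.341 and 0.282 FPKM), Twist1 (1.10 and 1.24 against 0.357 and 0.436 FPKM) and Twist2 (0.436 and 0.424 against 0.179 and 0.126 FPKM). In the feeder-free groups, Vim per 100 FPKM of markers was at 138 and 114 FPKM in −F and 930 and 1010 FPKM in NB2i. Zeb2 was at 0.627 and 0.712 FPKM in −F and 0.159 and 0.168 FPKM in NB2i. A sum gives most weight to the markers of highest FPKM, such as Col1a1, with means of 67.8 FPKM in F and 244 FPKM in F2i. The median log2 fold change of the 13 markers was 0.72, with 5 called higher and 8 not called. Thy1, for one, had means of 33.7 FPKM in F and 46.1 FPKM in F2i, so the values per marker depend on the markers chosen. The part of feeder RNA in any change was not tested.

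**Figure D4:**
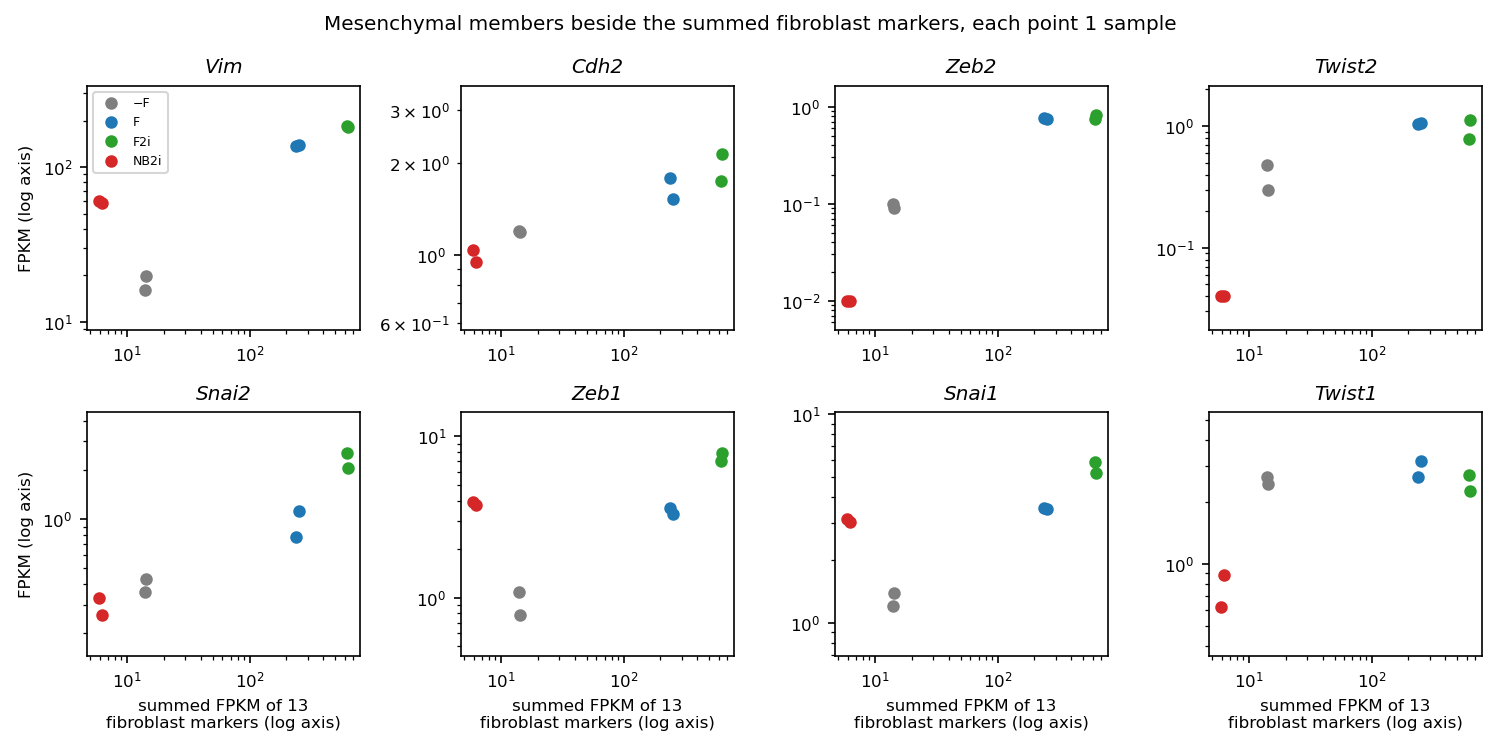
The FPKM of Vim, Cdh2 and the 6 transcription factor genes in each library (vertical, log axis) against the summed FPKM of 13 fibroblast markers (horizontal, log axis), coloured by culture condition. The NB2i libraries lie lowest on the horizontal axis (5.96 and 6.28 FPKM). Vim, Snai1 and Zeb1 are higher there than in −F, while the other 5 genes are lowest in NB2i. Of these, Cdh2 and Snai2 did not pass the test in NB2i against −F.

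Among the adherens junction genes, the genes called included Cdh3, Cdh11, Ptpn14 and Pvrl4, and the core catenins were not called. Of 18 adherens junction genes, 1 was called higher and 1 lower in F against −F (median log2 fold change −0.08), 0 and 1 in F2i against F (−0.13), 1 and 5 in NB2i against F2i (−0.18), and 1 and 5 in NB2i against −F (−0.26). Of all genes tested, 5.59% were called higher and 1.65% lower in F against −F, and 6.44% and 7.00% in F2i against F. In NB2i against F2i these shares were 6.01% and 13.3%, and in NB2i against −F 11.1% and 16.1%. The core catenins stayed within 2-fold in the 4 comparisons. Ctnnb1, β-catenin, had group means of 202 to 216 FPKM, with log2 fold changes of −0.01, −0.03, 0.11 and 0.07, of which only the 0.11 of NB2i against F2i passed the test (adjusted p = 0.0253). Ctnna1, α-catenin, had group means of 141 to 171 FPKM and fell in NB2i against F2i (−0.27, adjusted p = 5.55e-06). Ctnnd1, p120-catenin, had means of 55.0 to 60.4 FPKM. Jup, plakoglobin, rose in NB2i against −F (0.69, SE 0.05, adjusted p = 9.25e-12), from 30.6 ± 0.7 to 47.0 ± 2.0 FPKM (SD, n = 2). Cdh3, P-cadherin, was lower in each group in turn, at 17.7 and 18.1 FPKM in −F, 10.8 and 11.6 FPKM in F, 4.69 and 4.55 FPKM in F2i, and 1.70 and 1.88 FPKM in NB2i. Its log2 fold change was −1.24 in F2i against F (adjusted p = 2.13e-12) and −3.26 in NB2i against −F (adjusted p = 2.69e-19). Cdh11, a cadherin of mesenchyme, was at 0.42 and 0.49 FPKM in −F, 2.98 and 3.19 FPKM in F, 5.60 and 5.42 FPKM in F2i, and 1.08 and 0.91 FPKM in NB2i. It was highest in F2i, as the fibroblast markers were. Cdh11 was called higher in NB2i than in −F (1.20, SE 0.16, adjusted p = 7.71e-07), and the sum of the markers was lower there. Their part was not tested. Ptpn14 (−1.65 and −2.47) and Pvrl4 (−1.60 and −1.50) were called lower in NB2i against F2i and against −F. The gene of this list called lower in F against −F lay under 1 FPKM in every library.

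Among 32 epithelial junction and identity genes, 0 were called higher and 6 lower in F against −F (median −0.57), and 1 higher and 14 lower in F2i against F (−0.89). In NB2i against F2i, 11 were called higher and 1 lower (0.56), and in NB2i against −F 1 and 13 (−0.72). The shares of all genes called higher and lower were 5.59% and 1.65%, 6.44% and 7.00%, 6.01% and 13.3%, and 11.1% and 16.1% in the same order. Of the 15 genes of this list called in F2i against F, 14 were lower, as Epcam was, and Cdh1 rose. Esrp1, an epithelial splicing regulator, fell from 19.2 ± 0.2 FPKM in F to 1.51 ± 0.12 FPKM in F2i (log2 fold change −3.64, SE 0.08, adjusted p = 1.15e-19), and the tight junction genes Cldn6 (−2.82) and Cldn7 (−2.45) fell too. Krt8 and Krt18, the keratins of simple epithelia, had means of 59.4 and 76.2 FPKM in −F, 31.0 and 36.9 FPKM in F, and 5.84 and 7.79 FPKM in F2i. In NB2i they parted, with Krt8 at 28.7 ± 1.4 FPKM and Krt18 at 10.6 ± 0.1 FPKM. Krt8 rose in NB2i against F2i (2.30, SE 0.07, adjusted p = 9.26e-17), as did Cldn7 (2.57) and the serine protease gene Prss8 (2.71). Epcam did not pass the test there.

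The 18 mesenchymal cytoskeleton and matrix genes were mostly higher where fibroblast markers were. In F against −F, 10 were called higher and 0 lower (median 1.39), in F2i against F 6 and 0 (0.65), in NB2i against F2i 0 and 14 (−2.69), and in NB2i against −F 4 and 10 (−1.37). S100a4 had no count in NB2i and at most 3 in −F, and without it the last median was −1.17. The shares of all genes called higher and lower were 5.59% and 1.65%, 6.44% and 7.00%, 6.01% and 13.3%, and 11.1% and 16.1% in the same order. Tnc, tenascin C, rose from 0.165 ± 0.050 FPKM in −F to 32.5 ± 2.6 FPKM in F (log2 fold change 7.62, SE 0.11, adjusted p = 6.91e-23). Lox, which crosslinks collagen, was at 20.0 ± 1.7 FPKM in F and 78.1 ± 2.5 FPKM in F2i (1.98, adjusted p = 2.81e-18). Fn1, fibronectin, was highest in NB2i, with means of 97.2, 175, 311 and 346 FPKM in −F, F, F2i and NB2i. It rose in NB2i against −F (1.90, SE 0.05, adjusted p = 4.09e-19), as Vim did, and Tgfbi, a matrix protein, rose there too (3.16). Sparc had means of 97.2 FPKM in −F and 457 FPKM in NB2i. The 18 genes summed to 567 and 557 FPKM in −F and to 1636 and 1578 FPKM in NB2i, so the sum and the median of the list moved in opposite directions between NB2i and −F. In the same comparison the smooth muscle genes Tagln (−6.83) and Acta2 (−6.57) fell.

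Of 16 other EMT transcription factors, 4 were called higher and 0 lower in F against −F (median 0.49), 2 and 1 in F2i against F (0.14), 1 and 10 in NB2i against F2i (−1.91), and 3 and 8 in NB2i against −F (−0.77). The shares of all genes called higher and lower were 5.59% and 1.65%, 6.44% and 7.00%, 6.01% and 13.3%, and 11.1% and 16.1% in the same order. Prrx1, a homeobox factor of limb and dermal mesenchyme, rose from 0.080 ± 0.014 FPKM in −F to 3.46 ± 0.52 FPKM in F (5.54, SE 0.21, adjusted p = 3.95e-15). Snai3, the remaining Snail family gene, fell in F2i against F (−3.23, SE 0.20, adjusted p = 8.54e-12), from 5.93 ± 0.60 to 0.610 ± 0.057 FPKM, the opposite direction to Snai2. Gsc, goosecoid, rose in F2i against F (2.21) and was higher in NB2i than in −F (2.97). The inhibitor genes Id1 (−4.56) and Id3 (−2.64), targets of BMP signalling, fell in NB2i against −F. The medians of the mesenchymal and other EMT factor lists had the sign of the change in summed fibroblast markers in all 4 comparisons, and the epithelial medians the opposite sign in all but NB2i against −F. The part of feeder RNA in these counts was not tested.

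**Figure D5:**
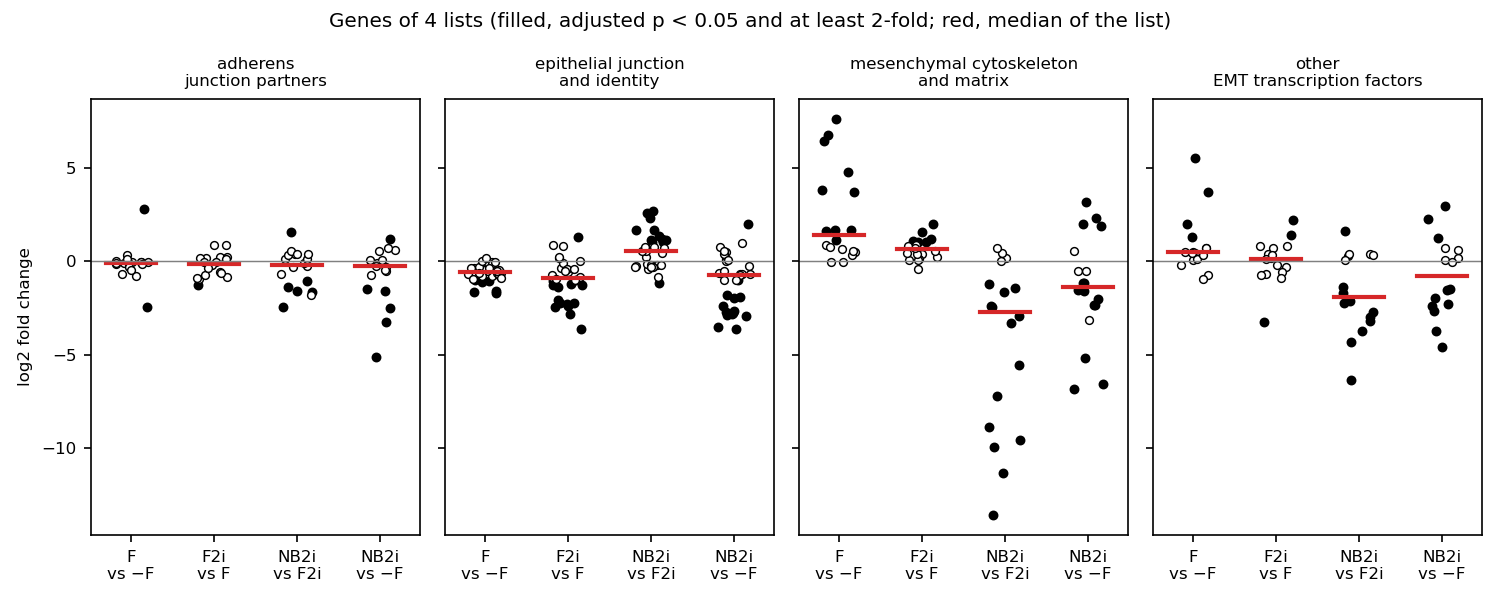
Log2 fold changes of the genes of the 4 pathway lists in the 4 comparisons, 1 point per gene (filled where called), with a red line at the median of each list. The mesenchymal list has medians of 1.39, 0.65, −2.69 and −1.37, and the epithelial list −0.57, −0.89, 0.56 and −0.72, while the adherens junction list stays between −0.08 and −0.26.

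The genes whose levels ran most like each of the 10 were found by Pearson's r of log2(FPKM + 0.1) over the 8 libraries, among 12938 genes. With 4 conditions, r mostly reflects the group means and is given as a description. Zeb2 was nearest to Axl (r = 0.999), Slit3 (0.999) and Col6a1 (0.998), the last of which is itself on the fibroblast list. Vim was nearest to Xbp1 (0.994), Snhg1 (0.990) and the collagen receptor gene Ddr2 (0.990), and Snai2 to Dmpk (0.992). Cdh1 was nearest to Prr15l (0.994), Epcam to Adk (0.9995), Snai1 to Ino80c (0.998) and Zeb1 to Cggbp1 (0.996). Twist1 was nearest to Taf7l (0.995), Twist2 to Ankrd28 (0.994) and Cdh2 to Klhl18 (0.987). Within the set, Snai1 ran closest to Zeb1 (0.972) and Vim (0.965), Twist2 to Zeb2 (0.941), and Cdh1 ran opposite to Twist2 (−0.964) and Zeb2 (−0.939).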

How the data were processed

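Poly-A RNA of N33 ESCs was sequenced in 8 libraries. The authors aligned reads to mm10 with Bowtie2 and deposited, per gene and library, RSEM expected counts and FPKM (versions are not given in the sources used here). Files list only genes with reads, so an unlisted gene was taken as 0. Of the deposited expected count values, 29.8% were not whole, and all were rounded. FPKM as deposited was used for levels.

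A gene was tested when 2 or more libraries had 10 or more counts (15287 of 20278), with edgeR 4.0.16 (R 4.3.3; TMM, quasi-likelihood, 1 fit of all 8 libraries, 4 residual degrees of freedom) and adjusted by Benjamini-Hochberg. Called meant an adjusted p under 0.05 and at least 2-fold. On data simulated for F against −F over 15008 genes, edgeR recovered 97 of 100 genes changed 2.5-fold and 100 of 100 changed 4-fold. The simulation gave all genes the same spread and changed no genes of mean counts as low as those of Twist2, so the recovery does not cover such genes. DESeq2 1.42.0, limma 3.58.1 on log2(FPKM + 1) and log2(FPKM + 0.1), other filters, DESeq2 size factors, only the groups compared, a replicate block and leaving out each library were the alternatives. An exact permutation test of 2 against 2 libraries cannot go below p = 0.3333 and was not used. Within groups, counts of replicates differed by 1.89 to 3.71 times the chi-square expected from sampling, and every pair was counted as 2 samples. The SE of an edgeR fold change was computed as the size of its log2 value over the square root of the quasi-likelihood test statistic. Intervals for single genes are 95% and not adjusted, and those of fold changes use this SE.

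The 10 genes, the pathway lists (adherens junction, epithelial, mesenchymal, other EMT factors) and the marker lists (fibroblast, ESC, primitive endoderm, mesoderm, neural, trophoblast) were chosen from textbook knowledge with earlier results of these data known. Named list genes were fixed ones (catenins, Jup, Fn1, Krt8, Krt18, some markers) and the up to 4 largest called changes per list and comparison with at least 1 FPKM in the higher group. Like genes needed at least 1 FPKM in at least 2 libraries. Coordinates are from GENCODE vM21 (mm10) and promoters from RefSeq GRCm38.p6.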

Additional observations from a re-analysis of the deposited data

How the results depend on the processing

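Of 471 recomputed fold changes of the 10 genes, 453 kept their direction and their side of the thresholds. Requiring at least 10 counts in every library, which removes Twist2 and Zeb2 from the test, gave 393 genes called in F against −F (1107 otherwise), 1110 in F2i against F (2055), 1513 in NB2i against F2i (2956) and 2597 in NB2i against −F (4152), and 3 of the 8 remaining members of the set in NB2i against F2i (5 otherwise). With limma on log2(FPKM + 1), a scale that shrinks changes of low genes, the genes called were 309, 731, 1094 and 1982 in the same order, and the called among the 10 were 2, 1, 2 and 4 (6, 3, 5 and 7 otherwise). With log2(FPKM + 0.1), Zeb2 in NB2i against −F was −0.83 and under 2-fold. DESeq2 lost the call of Twist2 in F against −F (adjusted p = 0.0548). Leaving out 1 library each kept 156 of 160 fold changes. Twist2 in F2i against F ranged from −0.39 to 0.13, turning sign without F2i replicate 2, and the cause was not tested. Members called in NB2i against F2i ranged from 5 to 7. Libraries of the same replicate number shared no strong deviation (correlations of deviations −0.17 to 0.08 over 6 pairs of groups). Such correlations cannot show whether these libraries were cultured or prepared together. A fit with the replicate block called 1092 genes in F against −F and 2943 in NB2i against F2i, and kept 40 of 40 fold changes of the 10 genes. With expected counts in place of FPKM, the log2 ratio of Cdh1 to Vim was 1.01 in F and 0.77 in F2i, above 0, since counts are not per length.

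Each group held 2 libraries of 1 cell line. Depth limited Twist2 and Zeb2 in NB2i, at 1 to 2 counts per library, and Twist2 in −F, at 8 and 13 counts. Feeder RNA and ESC RNA were not separated.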
